A study of Arabidopsis thaliana with 6 samples.

Results

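The subject is 62 SAUR (small auxin up RNA) genes of Arabidopsis thaliana and the binding of FRUITFULL (FUL) next to them. They are the protein-coding genes whose symbol or synonym is SAUR plus a number, without SAUR10 and its relatives (SAUR8, 9, 12, 16, 50 and 54) and without SAUR19 to 24 and 26 to 29. The table of 27444 protein-coding genes held 80 loci with such a name, of which 18 were left out in this way. The rule itself used names and no measured value, but the genes were chosen with earlier results of these data known.

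FUL is a MADS-domain transcription factor known for its parts in the floral transition and in fruit growth. Its sites were mapped by ChIP-seq with anti-GFP beads against a FUL-GFP fusion driven by the FUL promoter, so binding was measured in the cells where that promoter is active. All plants carried pFUL:FUL-GFP. Inflorescence meristems (IM) were taken at 4 to 5 weeks from plants that also had the mutations ap1-1 and cal-1 and the transgene 35S:AP1-GR, which had not been induced. Pistils, at stages 12 to 16, were taken from ful-1 plants. All samples were of the Ler/Col F2 ecotype, and whether plants were pooled is not given in the sources used here. The 6 samples, 2 ChIP replicates and 1 input library for IM and likewise for pistils, led to 2 peak lists, 1 for each tissue, with the replicates of a tissue pooled. There is therefore no spread between replicates and no test between the tissues, and tissue and mutant background cannot be told apart. The IM list held 3650 peaks and the pistil list 3494, and their lowest −log10 p values were 22.4 and 34.4. Read depth is unknown, so a gene without a listed peak cannot be called unbound.

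Auxin switches on many SAUR genes within minutes, and their products are small proteins encoded by short genes that often stand in tandem arrays. The best known SAUR proteins inhibit phosphatases of the PP2C.D group, which otherwise keep the proton pumps of the plasma membrane inactive. More active pumps acidify the cell wall, and the cell expands. This route is known from growing shoots, and its use in the meristems and pistils sampled here was not measured.

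A gene was counted when it held the summit of a peak or had one at most 3 kb away. By that count 22 of the 62 SAUR genes (35.5%) had a peak in IM and 27 (43.5%) had one in pistil. Of all protein-coding genes, 23.7% had one in IM and 21.3% in pistil. Both lists held a peak for 19 SAUR genes (30.6%, against 15.3% of all genes). The IM list alone held one for 3 (4.84%, against 8.36%) and the pistil list alone for 8 (12.9%, against 6.01%). In all, 30 (48.4%, against 29.7%) had a peak in a list and 32 (51.6%, against 70.3%) had none. The SAUR genes were shorter than most genes, with a median of 815 bp against 2078 bp, which makes their windows smaller. Among genes of the same length range, 396 to 2073 bp, the shares were 20.7% for IM, 19.2% for pistil, 13.4% for both, 7.28% for IM alone and 5.79% for pistil alone. These shares were not matched for the gaps to the next protein-coding genes on both sides. The gaps summed to a median of 2974 bp for the SAUR genes and 1855.5 bp for all genes. Of all genes, those with a peak in a list had 2296 bp and those with none 1668 bp. Whether the gaps bear on the shares was not tested. With summits at most 1 kb away, 13 SAUR genes were counted in IM (21.0%, against 13.9% of all genes) and 20 in pistil (32.3%, against 11.9%). With summits at most 5 kb away, the IM share, 24 of 62 (38.7%), came nearer to that of all genes (33.1%), and in pistil it was 32 of 62 (51.6%, against 30%). With each summit given to its nearest gene alone, 13 were counted in IM (21.0%, against 11.8%) and 17 in pistil (27.4%, against 10.8%). With IM peaks held to the lowest −log10 p of the pistil list, 16 remained in IM (25.8%, against 16.1%). With folds above the list's median, 12 were counted in IM (19.4%, against 12.9%) and 19 in pistil (30.6%, against 11.6%).

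**Figure D1:**
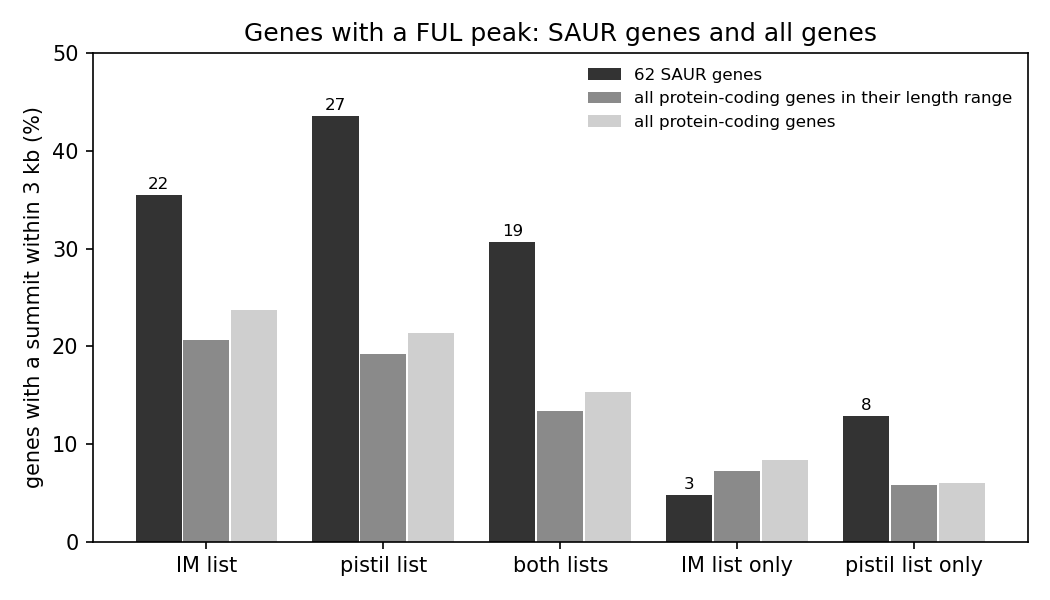
Share of genes with a FUL summit inside them or within 3 kb, in percent, for the 62 SAUR genes (dark bars, number of genes above), for all protein-coding genes in the length range of these SAUR genes and for all protein-coding genes. The SAUR bars reach 35.5% in IM and 43.5% in pistil, and stand below the other bars for genes of the IM list alone.

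Peaks are shared between neighbours, so these counts are not counts of sites. The 22 SAUR genes of the IM list had 22 distinct peaks and the 27 of the pistil list had 31, and 5 of the IM peaks and 8 of the pistil peaks lay within 3 kb of at least 2 of the SAUR genes. At least 2 peaks lay near 7 SAUR genes in IM, 11.3% of the 62 against 3.55% of all genes, and near 15 in pistil, 24.2% against 3.34%. SAUR51 and SAUR78 had the highest number of pistil peaks, with 3 each.

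In 7 tandem groups, defined among the 62 genes alone by at most 2 other protein-coding genes between neighbours, stood 23 of the SAUR genes. Of these, 16 had a peak in a list (69.6%), against 14 of the 39 outside such groups (35.9%). Among all genes, which were not split in this way, 29.7% had one, so the share outside the groups was nearer to that of all genes. When the excluded SAUR genes also counted as neighbours, SAUR53, next to SAUR54, and SAUR73, within the SAUR26 to SAUR29 array, joined a group, and the counts were 18 of 25 (72.0%) and 12 of 37 (32.4%). A peak can serve several genes of a group, and the difference was not tested. With each group taken as 1 locus, 14 of 46 loci had a peak in IM (30.4%) and 16 in pistil (34.8%), beside 23.7% and 21.3% of all genes, which were not grouped in this way.

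The largest group, on chromosome 4, held SAUR49 and SAUR1 to SAUR5, with the excluded SAUR50 between them. All 6 had a peak in both lists, at 3 distinct peaks in IM and 5 in pistil. A peak 60 bp from SAUR3 in IM (16593527 to 16594961, TAIR10) had a fold enrichment over background of 5.09, rank 692 of 3650. The overlapping pistil peak, 101 bp from SAUR3 (16593459 to 16595042), had a fold of 7.08, rank 500 of 3494. This pair of peaks was also within 3 kb of SAUR1, SAUR2 and SAUR4. A second pair lay 148 bp (IM) and 156 bp (pistil) from SAUR4, with folds of 4.31 and 6.35, and was the site by which SAUR5 was counted. Beside SAUR1, at 351 bp, another pistil peak (16589684 to 16591433) had a fold of 5.62 and no partner in the IM list. SAUR49 had a summit inside the gene in each list, both of low fold (3.08, rank 3037, in IM and 3.22, rank 2908, in pistil), and a second pistil peak with a fold of 3.12 at 555 bp. SAUR49 is known to promote leaf senescence through a PP2C.D phosphatase.

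The group of SAUR13, SAUR14 and SAUR15, also on chromosome 4, held the highest pistil fold of all 62 genes. This pistil peak of 3584 bp (18126403 to 18129986) had its summit 1512 bp from SAUR15 and 2782 bp from SAUR14, with a fold of 10.8 and rank 84 by fold. By −log10 p, at 504, it had rank 30. SAUR15, also called SAUR-AC1, is a classic early auxin-induced gene. An IM peak overlapped it, with a fold of 3.70 and rank 1921 of 3650, 1286 bp from SAUR15. Both of these peaks were within 3 kb of the excluded SAUR16 as well, at 1896 bp in pistil and 2122 bp in IM. Between SAUR14 and SAUR15 stood a second shared site, 216 bp (IM) and 220 bp (pistil) from SAUR14, with folds of 3.53 and 5.65. SAUR13, whose span overlaps AT4G38820, had a peak 933 bp away in IM and 940 bp away in pistil, with folds of 3.63 and 4.17.

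**Figure D2:**
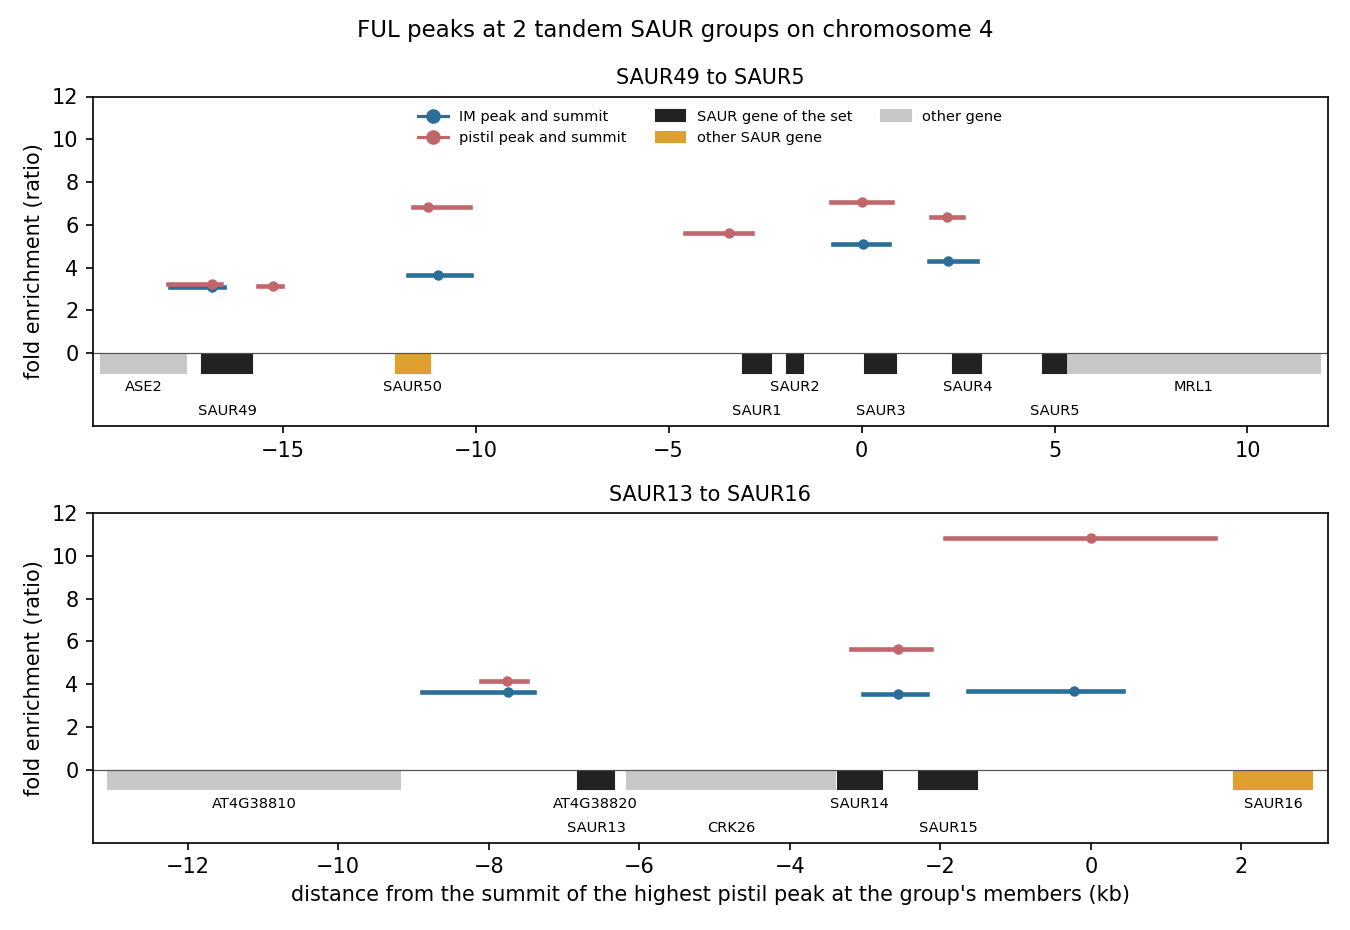
Fold enrichment (ratio, vertical axis) of FUL peaks over 2 tandem SAUR groups of chromosome 4, against distance in kb from the summit of the highest pistil peak at each group's members. Lines span each peak, dots mark summits, and boxes below the zero line are genes. In the lower panel the pistil peak between SAUR15 and SAUR16 reaches 10.8, and the IM peak at that place has a fold of 3.70.

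On chromosome 1, SAUR51 had its highest peak of both lists on the same side, 662 bp (IM) and 678 bp (pistil) away. The IM peak there was 4269 bp wide with a fold of 4.46 (rank 1075), and the pistil peak (28377846 to 28380822) had a fold of 8.68 (rank 263). Its neighbour SAUR52 had 2 pistil peaks, with folds of 5.33 at 2035 bp and 3.72 at 1290 bp, and no IM summit nearer than 3841 bp. SAUR6 and SAUR7 on chromosome 2 shared an IM peak of low fold (3.04, rank 3121) and a pistil peak with a fold of 4.09 (rank 1774), 51 bp from SAUR6. For SAUR7 these peaks did not overlap, and it was the exception among the 19 SAUR genes of both lists. The other 18 had at least 1 pair of overlapping peaks, a count with no share of all genes beside it. At SAUR6 the IM peak overlapped another pistil peak (fold 3.09, rank 3154), whose summit was 516 bp away and nearer to the excluded SAUR12.

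The SAUR63 relatives on chromosome 1, named after a gene that promotes organ elongation, were split. SAUR61 to SAUR65 had no peak in either list, and their nearest summits were at least 12928 bp away. SAUR66 and its neighbours AT1G29490 (synonym SAUR68) and AT1G29510 (SAUR67 and SAUR68 in the table) had 2 pistil peaks and no IM summit within 30 kb. One summit lay inside SAUR66 (10320670 to 10321424, fold 3.46, rank 2541) and the other lay 125 bp from it (10321548 to 10322568, fold 3.81, rank 2076), both below the median fold of the pistil list, 4.10. These genes are close copies, and how reads that match several copies were treated is not given in the sources used here. SAUR75, a relative on chromosome 5, had no peak.

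Among the 39 SAUR genes outside these groups, 7 were in both lists: SAUR41, SAUR53, SAUR71, SAUR78, SAUR42, SAUR31 and SAUR69. SAUR69 had the highest IM fold of all 62 genes, 6.58 (rank 216, chromosome 5, 3477755 to 3479327). Its pistil fold was 7.14 (rank 488), with summits 825 bp and 771 bp from SAUR69, and AT5G11000 was nearer to both, at 124 bp and 178 bp. SAUR78, whose product has been found to bind ethylene receptors, had a summit inside the gene in both lists, with folds of 5.02 (rank 726) in IM and 6.50 (rank 617) in pistil. It had a second pair of peaks 42 bp and 56 bp away, with folds of 3.64 and 5.39. SAUR41 and SAUR71 belong to 1 subfamily with SAUR40 and SAUR72. SAUR41, a promoter of cell expansion, had summits 434 bp (IM, fold 4.06) and 443 bp (pistil, fold 5.52) away. SAUR71 had summits at 551 bp and 603 bp, with folds of 3.89 and 3.81. SAUR72 had a pistil peak alone, at 2206 bp and with a fold of 3.50, and SAUR40 had none.

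SAUR53 had 3 IM peaks and 1 pistil peak. Its nearest IM peak, 249 bp away with a fold of 4.37 (rank 1162), overlapped the pistil peak, 350 bp away with a fold of 5.18 (rank 1078), and the other IM peaks, with folds of 3.23 and 3.92, had no partner. At SAUR42 the IM fold was the lowest of any peak at these genes, 2.80 (rank 3544 of 3650), and the overlapping pistil peak had a fold of 5.39 (rank 975 of 3494), with summits 592 bp apart. SAUR31 had summits 2523 bp and 2592 bp away, with folds of 3.90 and 6.65, and AT4G00870 was nearer to both.

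**Figure D3:**
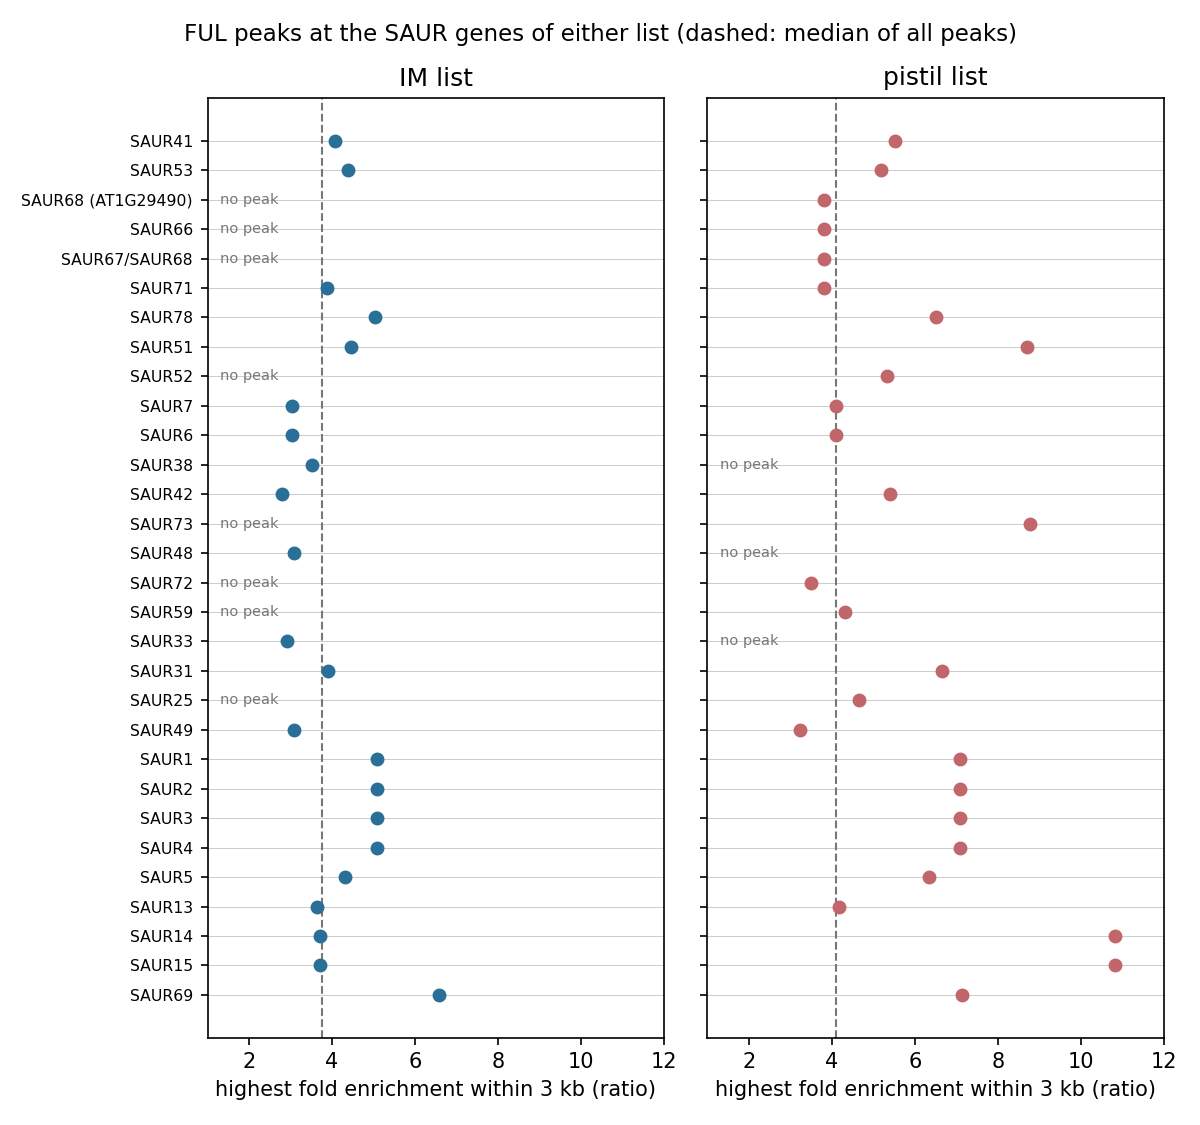
Highest fold enrichment (ratio, horizontal axis) within 3 kb of each of the 30 SAUR genes with a peak in either list, IM on the left and pistil on the right, in order along the chromosomes. The dashed lines are the medians of all peaks, 3.77 and 4.10. Genes that share a peak have the same value, as SAUR1 to SAUR4 do, and the highest values are 6.58 at SAUR69 in IM and 10.8 at SAUR14 and SAUR15 in pistil.

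The 3 SAUR genes of the IM list alone were SAUR38, SAUR48 and SAUR33, with folds of 3.52, 3.08 and 2.90 and summits 1246, 1533 and 1348 bp away. Another gene was nearer to the summit at each of them. At SAUR33 this was NAC066, a NAC gene of secondary wall thickening, at 1279 bp. The −log10 p at SAUR48 (23.9) and SAUR33 (22.7) was below the lowest value of the pistil list, 34.4, and no pistil peak had a value as low. SAUR38 had 36.8, above it, but its nearest pistil summit was 3455 bp away, and with a window of 5 kb it was in both lists. The median −log10 p of all peaks was 42.7 in IM and 73.9 in pistil. With read depth unknown, these values need not be on the same scale in the 2 lists. The 8 of the pistil list alone were SAUR52, SAUR72, the 3 loci around SAUR66 and SAUR73, SAUR59 and SAUR25. SAUR73 stands within the excluded SAUR26 to SAUR29 array, and its 2 peaks (folds of 8.76, rank 256, and 5.08, rank 1119) had their summits nearer to SAUR27 and SAUR26. SAUR59 had a summit 244 bp away with a fold of 4.32 (rank 1586), and SAUR25 one 859 bp away with a fold of 4.64 (rank 1363), nearer to AT4G13800.

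Within the pistil list the 31 peaks at these SAUR genes had a median fold of 5.18 (rank 1078 of 3494), and all pistil peaks had 4.10. Of the 31, 22 lay above the list's median and 3 in the top 10% by fold. The 22 IM peaks had a median fold of 3.67, and all IM peaks had 3.77. Of the 22, 10 lay above the list's median and 1 in the top 10%. By −log10 p the direction was the other one in IM, with a median of 43.8 against 42.7 for all IM peaks. The peaks at the SAUR genes were also wider, with a median of 1417 bp against 1075.5 bp in IM and 1060 bp against 904 bp in pistil. A pistil partner was found for 17 of the 22 IM peaks (77.3%, against 59.5% of all IM peaks) and an IM partner for 19 of the 31 pistil peaks (61.3%, against 63.4%). None of these differences was tested, and folds of the 2 lists are on separate scales.

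Summits seldom lay inside these short genes. There were 30 pairs of a SAUR gene and an IM peak. Of these, 2 had the summit inside (6.67%, against 8.77% of pairs for genes of the same length range). Another 12 had it outside and within 1 kb (40.0%, against 39.8%) and 16 from 1 to 3 kb (53.3%, against 51.4%). Of the 44 pistil pairs, 3 had it inside (6.82%, against 8.28%). Another 21 had it outside and within 1 kb (47.7%, against 38.0%) and 20 from 1 to 3 kb (45.5%, against 53.8%). The SAUR gene was nearest to the summit in 16 of the 30 IM pairs (53.3%) and in 23 of the 44 pistil pairs (52.3%). These shares were near those of all pairs of a gene and a peak, 46.8% in IM and 48.3% in pistil. Of the 30 SAUR genes with a peak in a list, 13 were nearest to no summit in either, a count with no share of all genes beside it. Strand was not used here, so upstream and downstream are not told apart. The closest pairs beyond the window edge were SAUR11 at 3337 bp in IM (fold 4.11) and SAUR7 at 3074 bp in pistil (fold 3.09). A pistil peak 3297 bp from SAUR11 had a fold of 9.85, rank 151. The farthest inside it were SAUR53 at 2988 bp in IM (fold 3.92) and SAUR14 at 2782 bp in pistil.

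**Figure D4:**
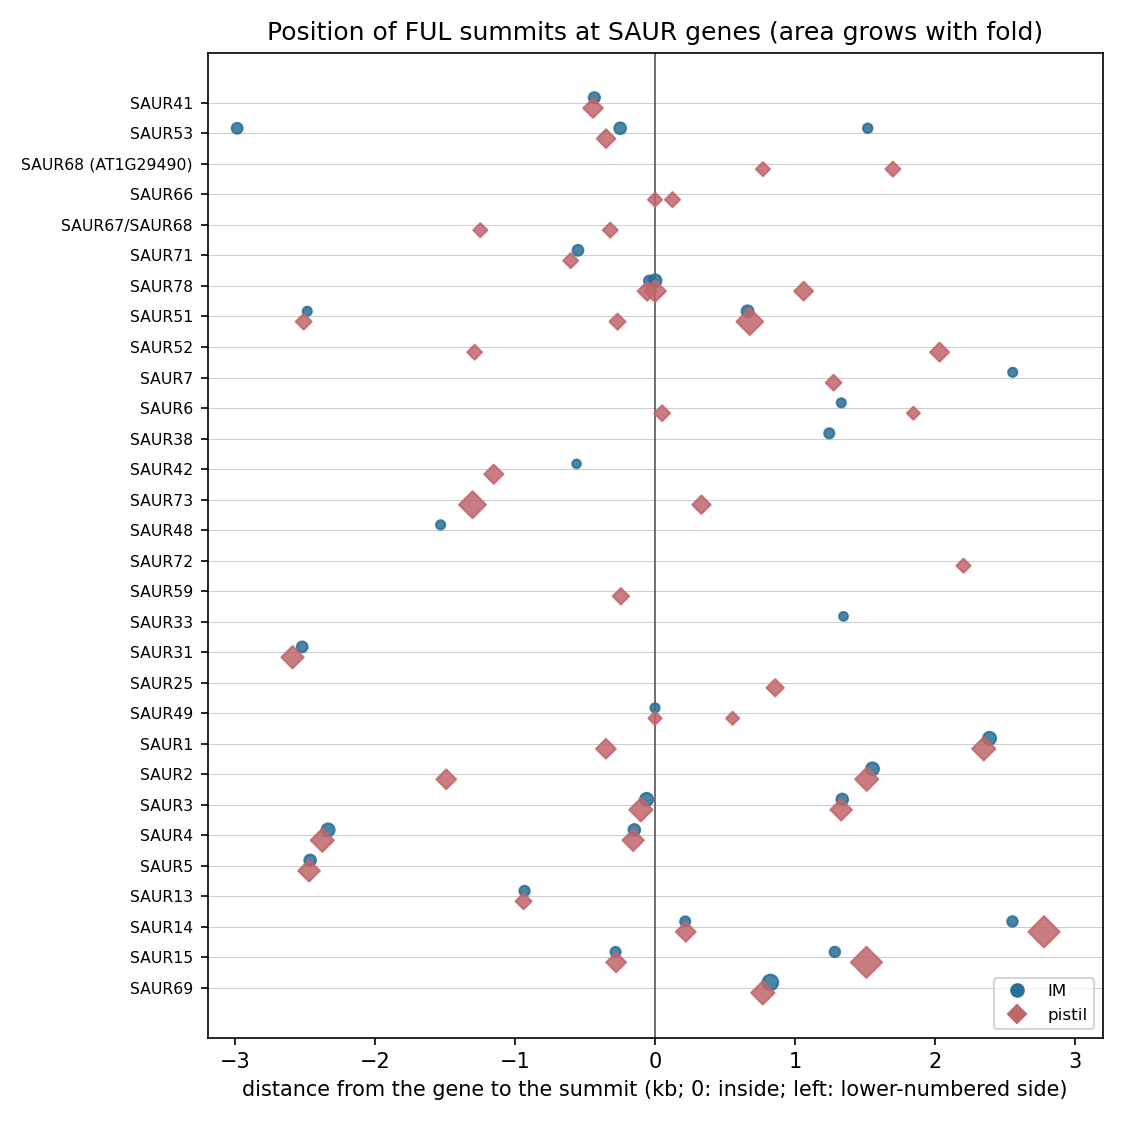
Distance in kb from each of the 30 SAUR genes to the summits counted for it, with IM as circles and pistil as diamonds, and a marker area that grows with fold. A summit inside the gene is at 0, and the left side is the side of lower coordinates, not upstream. Where a gene is in both lists, the markers of the lists mostly stand together, as at SAUR41, SAUR69 and SAUR31, while SAUR42 and SAUR6 show them apart.

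The 32 SAUR genes with no peak in either list included SAUR36 (SAG201), which promotes leaf senescence, SAUR32, known from the apical hook, and SAUR76, SAUR77 and SAUR79, relatives of SAUR78. They also included SAUR11, SAUR17, SAUR18, SAUR30, SAUR34, SAUR35, SAUR37, SAUR39, SAUR43 to SAUR47, SAUR55 to SAUR58, SAUR60, SAUR70 and SAUR74, beside SAUR40, SAUR61 to SAUR65 and SAUR75. Their median distance to the nearest summit was 15509.5 bp in IM and 13532.5 bp in pistil. Their gaps to the next protein-coding genes on both sides summed to a median of 2848.5 bp, against 3087.5 bp for the SAUR genes with a peak and 1855.5 bp for all genes.

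The excluded relatives give the family context. All 7 of SAUR8, 9, 10, 12, 16, 50 and 54 had a pistil peak and 5 an IM peak, and of the 11 loci named SAUR19 to 24 or 26 to 29, 8 had a pistil peak and 2 an IM peak. In the route that SAUR proteins act on, 3 of 9 PP2C.D phosphatase genes had a peak in IM and 3 in pistil, 2 of them in both: AT3G12620 (folds of 3.47 in IM and 3.25 in pistil) and AT4G38520 (3.92 and 3.62). AT5G66080 had an IM peak of fold 6.99, rank 134. Of the 11 plasma membrane proton pump genes, 4 had a peak in IM and 3 in pistil, with folds between 2.97 and 4.01, among them HA1 and HA2, the main pumps of growing tissue. Of the 6 auxin receptor genes, 3 had a peak in IM and 4 in pistil, with the highest IM folds at AFB4 (6.95) and TIR1 (5.47). Of 9 GH3 genes, whose products conjugate auxin and other hormones to amino acids, 5 had a peak in IM and 4 in pistil, led by DFL1 (7.13 in IM and 12.4 in pistil). These counts are to be set beside the 23.7% and 21.3% of all genes.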

How the data were processed

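The authors deposited 1 narrowPeak list per tissue. Per the submitters' processing notes, Bowtie 1.1.2, Picard 2.60, MACS2 2.1.0, deepTools and build TAIR10 were used, without role or order. The fold enrichment of each summit, a ratio, and its −log10 p are values the authors deposited, and the deposited score is 10 times the −log10 p as a whole number. Peak names hold the word pooled. Numbers run to 13754 (IM) and 14602 (pistil), so each list is a selection by a rule not given in the sources used here.

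Summits (start plus offset) were set against protein-coding genes of RefSeq TAIR10.1 with Python 3.11.15 and pandas 2.3.3. Since that build's name differs, none of its coordinates are printed. Its register was checked: 29.5% of IM and 26.0% of pistil summits lay inside genes in place, and 60.1% to 63.0% when moved by 5000 bp. Assignment was tested on simulated data. Ranks are by fold within a list, and peaks overlap from 1 bp. Of the members, 5 matched by symbol and 57 by synonym. Every member with a peak is named. Members, gene lists and tests were chosen with earlier results of these data known. Planned motif searches and protein comparisons were not run, as no sequences were used here.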

Additional observations from a re-analysis of the deposited data

How the results depend on the processing

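The counts of SAUR genes depended on the window and on the limits of each list. With summits within 1 kb, 13 of the 62 had a peak in IM (against 13.9% of all genes) and 20 in pistil (against 11.9%). Of the 62, 12 were in both (19.4%, against 7.97%) and 1 in IM alone (1.61%, against 5.89%). With the nearest gene alone, the counts were 13 in IM (against 11.8% of all genes) and 17 in pistil (against 10.8%). There were 0 in IM alone (against 4.64%) and 4 in pistil alone (6.45%, against 3.7%). With 1 threshold on −log10 p, 34.4, 16 remained in IM (against 16.1%), and 1 of them, SAUR38, was in IM alone (1.61%, against 4.13%). At that threshold 15 were in both (24.2%, against 12.0%) and 12 in pistil alone (19.4%, against 9.33%). SAUR6, SAUR7, SAUR42 and SAUR49 moved from both lists to pistil alone. With folds above the list's median, 12 were counted in IM (against 12.9% of all genes) and 19 in pistil (against 11.6%). Of the 62, 11 were then in both (17.7%, against 6.97%) and 1 in IM alone (1.61%, against 5.98%). The 5 genes with a SAUR symbol had 1 in IM (20.0%, below the 23.7% of all genes) and 2 in pistil (40.0%, against 21.3%). They had 1 in both (20.0%, against 15.3%) and 0 in IM alone (against 8.36%). They had 1 in pistil alone (20.0%, against 6.01%) and 3 in none (60.0%, against 70.3%). Chosen after seeing the data, tandem groups taken as 1 locus gave 14 of 46 in IM (30.4%) and 16 in pistil (34.8%). There were 11 in both (23.9%) and 5 in pistil alone (10.9%). All genes, not grouped, had 23.7%, 21.3%, 15.3% and 6.01% in the same order. Leaving out peaks within 3 kb of the excluded SAUR genes gave 20 in IM (32.3%) and 26 in pistil (41.9%). The shares of all genes, with no peak left out, were 23.7% and 21.3%. A window of 5 kb gave 24 in IM (38.7%, against 33.1% of all genes) and 32 in pistil (51.6%, against 30%), and any base of a peak within 3 kb gave 23 (37.1%, against 26.9%) and 29 (46.8%, against 23.7%). Both kept each count within 1.5 times its value, as did tandem groups over all SAUR genes, also chosen after seeing the data, both other definitions of a shared site and ranks by −log10 p. No paired analysis was possible because peaks were called on the replicates together, and no replicate could be left out. The cause of these shifts was not tested.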
